A study of Rattus norvegicus with 9 samples.

Results

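Signalling kinases, protein phosphatases and lipid signalling enzymes were examined in cultured cardiac fibroblasts (CFs), the collagen-producing cells of the heart. The genes were taken by name, as every row of the deposited expression table whose symbol starts with the letters of 14 enzyme families. The rule uses no measured value, but it was set with earlier results of these data known. Of the 22512 rows listed, 41 met this rule. They fall into 10 families, with 2 adenylyl cyclases, 2 genes with phosphodiesterase names, 1 protein kinase A subunit, 7 genes with protein kinase C or D names, 2 calmodulin-dependent kinases, 3 kinases of the MAP kinase cascade, 1 ROCK kinase, 1 cyclin-dependent kinase, 5 phospholipase A2 genes and 17 serine/threonine phosphatase subunits. No listed name starts with GNA, PIK3, AKT, PLC or PTPN. Since 20346 of the rows carry only a LOC number, a family member without a symbol here may be among those rows, and nothing is said about genes that do not appear by symbol.

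The CFs came from hearts of neonatal rats, were separated by differential adherence and were used at passage 2 or 3. Of the 9 libraries, 3 were from untreated CFs (blank group), 3 from CFs given angiotensin II (AngII) at 0.1 µM for 72 h (AngII group), and 3 from CFs incubated with vericiguat at 1.0 µM for 24 h and then given the same AngII (vericiguat + AngII group). The order and times of the agents are those of the sample labels, whereas in the migration assay the agents were given in the other order. No group received vericiguat alone. Gene expression is given as FPKM, a fragment number corrected for how long the gene is and for how many fragments were mapped. The submitters' processing notes name OryCun2.0, a rabbit genome assembly, for all 9 samples, while the labels give rat, and the effect of this on any level was not tested. The symbols of 39 of the 41 genes matched a rat gene symbol when case was ignored, and PRKCZ-2 and PDE4DIPP2 did not. No sequence is printed, since no reference of the named build was at hand.

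These enzymes carry signals from receptors at the cell surface to the contractile, secretory and transcriptional machinery of the cell. AngII acts through its type 1 receptor, whose best known branches release calcium, activate protein kinase C and phospholipase A2, switch on the MAP kinase cascade and activate ROCK kinases. Vericiguat stimulates soluble guanylate cyclase, which makes cGMP, and cGMP acts through protein kinase G and through phosphodiesterases that it regulates or that degrade it. Adenylyl cyclase and protein kinase A form the parallel cAMP branch, and serine/threonine phosphatases remove the phosphate groups that these kinases add.

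The libraries differed in ways that touch every value below. Entries whose names start with KEF51, 13 rows in all, held 97.6% to 97.9% of the summed FPKM in the blank libraries, 96.7% to 97.5% in the AngII libraries and 45.3% to 52.3% in the vericiguat + AngII libraries. Genes that reached 1 FPKM numbered 260 to 1542 in the blank, 1155 to 1517 in the AngII and 11280 to 11565 in the vericiguat + AngII libraries. Blank library 2 had the fewest such genes, 260, against 1542 and 865 in blank libraries 1 and 3. Blank library 3 lay between the other two blank libraries in 175 of 179 genes with a mean of at least 5 FPKM that were above 0 in all 3, which is 97.8%. In the AngII group the library that lay between the others most often did so in 43.8% of 313 such genes, and in the vericiguat + AngII group in 43.5% of 6853. Among 160 genes that differed at least 2-fold between blank libraries 1 and 2, its place on the way from library 2 (at 0) to library 1 (at 1) had a median of 0.463 and a 5th to 95th percentile of 0.342 to 0.607. The cause was not tested, and calls that involve the blank group are given with and without this library.

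Marker sums of every cell type looked at, fibroblasts included, were higher in the vericiguat + AngII libraries than in all others. Nearly all genes tested were higher there as well, and the sums are not scaled for that. The 4 fibroblast markers listed of 14 (COL1A2, DCN, LUM and FN1) summed to 1.70 to 24.7 FPKM in the blank, 7.09 to 25.7 in the AngII and 368 to 527 in the vericiguat + AngII libraries. The 6 cardiomyocyte markers listed of 15 (MYH6, MYH7, PLN, RYR2, TTN and NPPA) summed to 6.80 to 9.06, 44.98 to 109 and 3812 to 6077 in the same order. The 3 macrophage and blood genes listed of 7 (CD14, HBA and HBB2) summed to 154 to 399, 204 to 310 and 8372 to 15140. The 2 endothelial markers of 6 summed to at most 0.398, 0.421 and 86.2, and the 3 smooth muscle and pericyte markers of 7 to at most 25.2, 6.85 and 731. No listed marker was at 0 in all 9 libraries. The part of these shifts in the differences below was not tested, and in RNA from whole cultures fewer cells of a type and less RNA per cell cannot be told apart.

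Nearly all of these signalling genes had far higher FPKM in the vericiguat + AngII libraries than in the other libraries. The same held for nearly all other genes that reached 1 FPKM in at least 3 of the 9 libraries. The 41 genes together summed to 20.5, 2.18 and 11.4 FPKM in blank libraries 1 to 3, to 13.9, 19.4 and 13.6 in the AngII libraries, and to 687, 599.6 and 586 in the vericiguat + AngII libraries. All 3 vericiguat + AngII sums lay above all others, while the blank and AngII sums overlapped, with blank library 2 far below the rest. Of the 41 genes, 34, 31 and 32 reached 1 FPKM in the vericiguat + AngII libraries, compared with 6, 0 and 3 in the blank and 3, 5 and 3 in the AngII libraries. As a share of the FPKM outside the KEF51 entries, the 41 genes took 0.0662%, 0.00602% and 0.0302% in the blank, 0.0304%, 0.0337% and 0.0252% in the AngII, and 0.161%, 0.140% and 0.135% in the vericiguat + AngII libraries. On this share, too, the vericiguat + AngII libraries lay above all others and the other groups overlapped. Nearly all genes went the same way. With libraries scaled to that FPKM, 10774 of the 10908 genes tested below were higher than in AngII and 10555 higher than in blank. In 36 of the 41 genes every vericiguat + AngII library lay above every AngII and every blank library, and in none did they all lie below. This share was not counted over all 22512 rows, of which 15383 were above 0 in all 3 vericiguat + AngII libraries. Among the 10908 genes tested below, these groups did not overlap in 99.8% against AngII and 99.7% against blank. Among the other 5 were PLA2G4E, PPP1R17, PPP2R2B and PPP2R2C, each at less than 1 FPKM in every library.

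**Figure D1:**
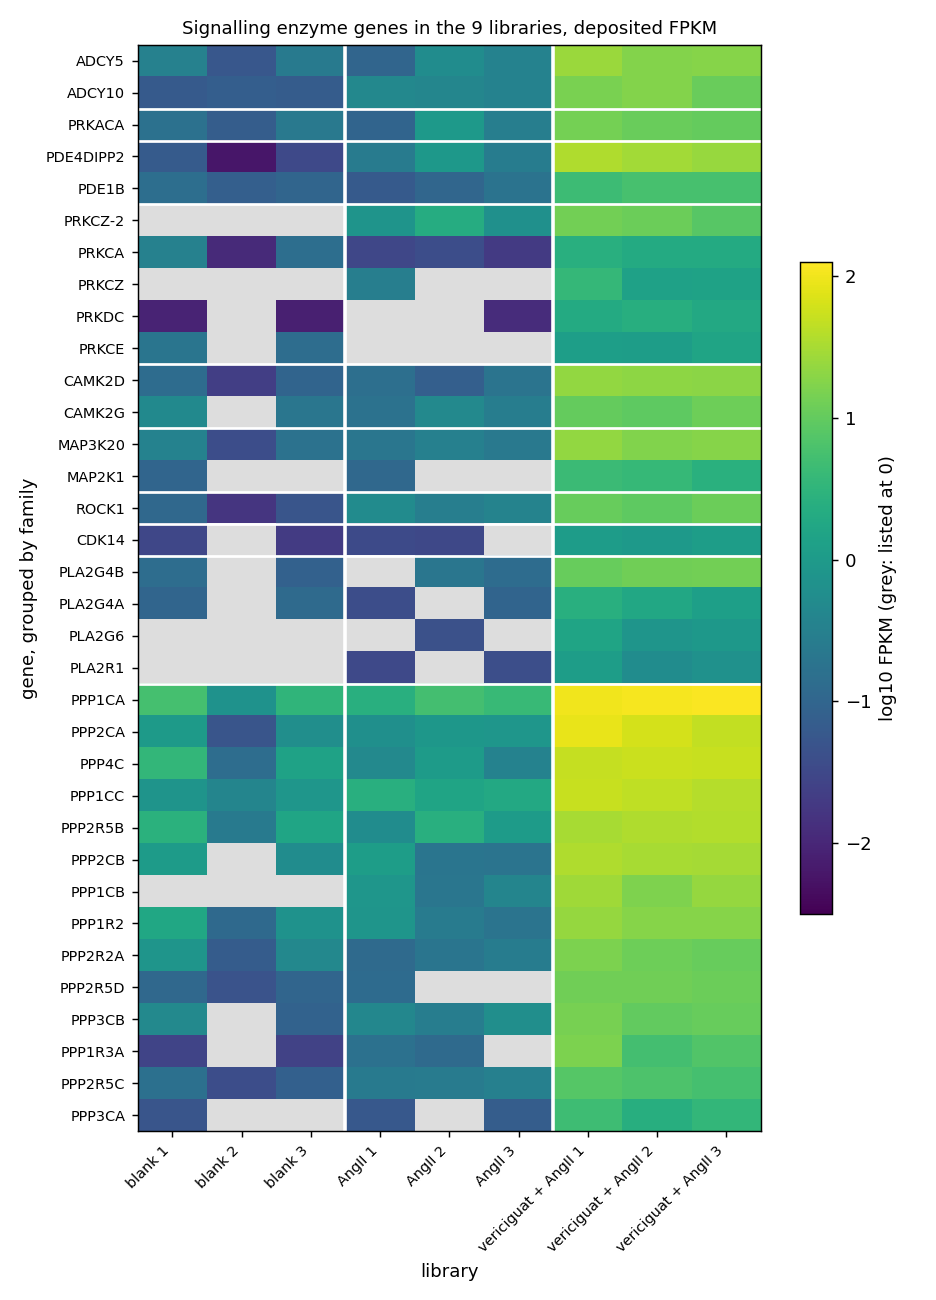
The 34 signalling genes that reached 1 FPKM in at least 1 library (rows, grouped by family with white lines) in the 9 libraries (columns, by group), with colour for log10 FPKM and grey for a value listed at 0. The 3 vericiguat + AngII columns are brighter than the other 6 in all 34 rows, and blank library 2 has the most grey cells, 16.

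An FPKM of 0 needs care in these libraries. PPP1CB, a catalytic subunit of protein phosphatase 1 that is used by nearly every cell, was listed at 0 in all 3 blank libraries, and PPP2CB, a catalytic subunit of protein phosphatase 2A, at 0 in blank library 2. A value of 0 is therefore given only as listed at 0, each blank and AngII value is printed, and no fold is given against a group that is at 0 throughout. Of the 41 genes, 11 were listed at 0 in every blank library, 5 in every AngII library and 4 in both groups. PPP1R17 and PPP2R2C were at 0 in all 9 libraries. At the other end, 17 genes were above 0 in every library.

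Among the adenylyl cyclases, which make cAMP, ADCY10 was the gene whose blank and AngII libraries separated on the deposited FPKM. ADCY10, the soluble cyclase that responds to bicarbonate and calcium, was at 0.064, 0.074 and 0.068 FPKM in blank libraries 1 to 3, at 0.444, 0.402 and 0.345 in the AngII libraries, and at 15.2, 17.5 and 11.3 in the vericiguat + AngII libraries. The 3 groups did not overlap, and the blank values were close to each other. ADCY5, one of the main membrane cyclases of the heart, was at 0.330, 0.057 and 0.240 FPKM in the blank, at 0.102, 0.541 and 0.340 in the AngII, and at 26.03, 17.7 and 18.6 in the vericiguat + AngII libraries. Its blank and AngII values overlapped, and its vericiguat + AngII values averaged 20.8 ± 4.59 FPKM (SD, n = 3). In the vericiguat + AngII libraries ADCY5 was the higher of the pair, with ratios of ADCY5 to ADCY10 of 1.71, 1.01 and 1.65 and ranges that did not overlap. In the AngII libraries this ratio was 0.230, 1.35 and 0.986, so neither gene was higher throughout.

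PRKACA, a catalytic subunit of protein kinase A, the kinase that cAMP activates, was at 0.166, 0.072 and 0.226 FPKM in the blank, at 0.096, 0.961 and 0.291 in the AngII, and at 13.5, 11.3 and 10.2 in the vericiguat + AngII libraries. AngII library 2 was the highest of the 6 libraries without vericiguat, and the blank and AngII groups overlapped. No other protein kinase A subunit was listed by symbol.

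Of the phosphodiesterase names, only 1 is an enzyme that degrades cyclic nucleotides. PDE1B, which is stimulated by calcium and calmodulin and degrades both cGMP and cAMP, was at 0.145, 0.079 and 0.099 FPKM in the blank, at 0.063, 0.105 and 0.179 in the AngII, and at 4.48, 5.72 and 5.71 in the vericiguat + AngII libraries. Its blank and AngII values overlapped. PDE4DIPP2 is the name of a pseudogene of PDE4DIP, the gene of myomegalin, a scaffold protein that binds a phosphodiesterase and is not one itself. PDE4DIPP2 was at 0.065, 0.006 and 0.033 FPKM in the blank, at 0.257, 0.883 and 0.272 in the AngII, and at 36.3, 28.5 and 24.9 in the vericiguat + AngII libraries. Its 3 groups did not overlap on these FPKM, but after the scaling described below its AngII and vericiguat + AngII values did. Reads from PDE4DIP, which is not among the 41 genes, could be counted in PDE4DIPP2. PDE5A, the phosphodiesterase best known for degrading cGMP in smooth muscle, was not listed by symbol.

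The protein kinase C genes, which answer to the lipid and calcium signals released by AngII receptors, were low, and the entry with the clearest group pattern was PRKCZ-2. The 3 blank libraries listed PRKCZ-2 at 0, the AngII libraries had 0.750, 2.26 and 0.639 FPKM, and the vericiguat + AngII libraries 13.4, 11.5 and 8.15. Its 3 groups did not overlap. The name marks a second entry beside PRKCZ, an atypical protein kinase C that needs neither calcium nor diacylglycerol, and reads could be split between both entries, so their levels are uncertain. PRKCZ itself was at 0 in the blank libraries, at 0.297 FPKM in AngII library 1 and 0 in AngII libraries 2 and 3, and at 3.63, 1.35 and 1.42 in the vericiguat + AngII libraries.

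The other protein kinase C entries did not separate the blank from the AngII libraries. PRKCA, a conventional form activated by calcium and diacylglycerol, was at 0.330, 0.011 and 0.144 FPKM in the blank, at 0.030, 0.038 and 0.019 in the AngII, and at 2.54, 2.04 and 2.09 in the vericiguat + AngII libraries. The AngII values lay within the wide blank range. PRKCE, a form activated by diacylglycerol without calcium, was at 0.191, 0 and 0.139 FPKM in the blank, at 0 in all 3 AngII libraries, and at 1.21, 1.15 and 1.53 in the vericiguat + AngII libraries. PRKCE overlapped between blank and AngII because blank library 2 was also at 0. PRKCB, another conventional form, stayed below 1 FPKM throughout, at 0.316, 0.235 and 0.371 in the vericiguat + AngII libraries. PRKDC, which the rule takes in by its name, encodes the catalytic subunit of the DNA-dependent protein kinase of DNA repair. It was at most 0.012 FPKM in the blank and AngII libraries and at 2.09, 2.38 and 1.87 in the vericiguat + AngII libraries. In the vericiguat + AngII libraries PRKCZ-2 was the highest of these entries, and the ranges of PRKCA, PRKCZ and PRKDC overlapped from neighbour to neighbour.

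Among calmodulin-dependent kinases, the order of the heart form and its relative differed between most libraries without and all libraries with vericiguat. CAMK2D, the main calcium/calmodulin-dependent kinase II of the heart, was at 0.132, 0.023 and 0.096 FPKM in the blank, at 0.153, 0.077 and 0.186 in the AngII, and at 22.8, 21.2 and 19.8 in the vericiguat + AngII libraries. The blank and AngII values overlapped, and the vericiguat + AngII values had a coefficient of variation of 6.97%. CAMK2G, a related form found in many tissues, was at 0.476, 0 and 0.205 FPKM in the blank, at 0.173, 0.471 and 0.281 in the AngII, and at 10.2, 9.23 and 12.2 in the vericiguat + AngII libraries. The ratio of CAMK2D to CAMK2G, which does not depend on how libraries are scaled, was 0.277 and 0.468 in blank libraries 1 and 3, was 0.884, 0.164 and 0.662 in the AngII libraries, and was 2.24, 2.29 and 1.63 in the vericiguat + AngII libraries. CAMK2D was thus the lower of the pair in all 5 libraries without vericiguat that listed both genes above 0, and the higher in all 3 with vericiguat. In blank library 2 CAMK2D was the higher, since CAMK2G was listed at 0 there. This ratio was not tested.

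In the MAP kinase cascade, MAP3K20 had the highest level. MAP3K20, a kinase that responds to stalled ribosomes and other stress, was at 0.353, 0.038 and 0.170 FPKM in the blank, at 0.203, 0.319 and 0.232 in the AngII, and at 22.9, 17.3 and 18.6 in the vericiguat + AngII libraries. MAP2K1, which encodes MEK1, the kinase that activates ERK, was at 0.099 FPKM in blank library 1 and 0 in the other 2 blank libraries, at 0.115 in AngII library 1 and 0 in the other 2 AngII libraries, and at 4.32, 3.78 and 2.61 in the vericiguat + AngII libraries. Both genes overlapped between the blank and AngII groups. MAP3K21, a mixed lineage kinase, was listed at 0 in the blank libraries and reached at most 0.508 FPKM. No MAPK gene was listed by symbol.

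ROCK1, a kinase that acts on the actin cytoskeleton and on myosin light chain phosphatase, was at 0.112, 0.016 and 0.051 FPKM in the blank, at 0.516, 0.297 and 0.366 in the AngII, and at 10.9, 8.97 and 11.9 in the vericiguat + AngII libraries. Its 3 groups did not overlap on these FPKM, but after the scaling described below its AngII and vericiguat + AngII values did. CDK14, a cyclin-dependent kinase linked to Wnt signalling, was at most 0.034 FPKM in the blank and AngII libraries and at 1.10, 0.978 and 1.15 in the vericiguat + AngII libraries, just short of the level needed to be tested.

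The phospholipase A2 genes, whose enzymes release arachidonic acid from membrane lipids, were led by PLA2G4B. PLA2G4B, a cytosolic form, was at 0.141, 0 and 0.085 FPKM in the blank, at 0, 0.203 and 0.132 in the AngII, and at 10.9, 12.8 and 13.4 in the vericiguat + AngII libraries. PLA2G4A, the cytosolic form best known for supplying prostaglandin synthesis, was at 0.102, 0 and 0.124 FPKM in the blank, at 0.039, 0 and 0.096 in the AngII, and at 2.56, 1.83 and 1.27 in the vericiguat + AngII libraries. Both overlapped between blank and AngII, and in the vericiguat + AngII libraries PLA2G4B was 4.25, 7.003 and 10.6 times PLA2G4A. PLA2G6, a calcium-independent form, and PLA2R1, a receptor for secreted phospholipase A2 and not an enzyme, were listed at 0 in the blank libraries and averaged 1.09 ± 0.410 and 0.785 ± 0.307 FPKM (SD, n = 3) in the vericiguat + AngII libraries. The ranges of PLA2G4A, PLA2G6 and PLA2R1 overlapped from neighbour to neighbour. PLA2G4E was listed above 0 only in vericiguat + AngII library 2, at 0.036 FPKM.

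Serine/threonine phosphatases made up most of the summed level, with 17.8, 1.81 and 9.69 FPKM in the blank, 10.6, 12.8 and 10.1 in the AngII, and 479.7, 422 and 416 in the vericiguat + AngII libraries. The catalytic subunits are given before the regulatory ones. PPP1CA, a catalytic subunit of protein phosphatase 1, was at 5.43, 0.704 and 3.29 FPKM in the blank, at 2.51, 5.24 and 3.94 in the AngII, and at 102, 109.5 and 118 in the vericiguat + AngII libraries. Its mean of 109.7 ± 8.11 FPKM (SD, n = 3) in the vericiguat + AngII libraries placed it at the 98.1st percentile of all listed genes, and its blank and AngII values overlapped. PPP1CC, a second catalytic subunit, was at 0.747, 0.387 and 0.814 FPKM in the blank, at 2.499, 1.51 and 1.89 in the AngII, and at 52.2, 44.8 and 39.3 in the vericiguat + AngII libraries. The PPP1CC groups did not overlap on these FPKM, but after the scaling described below its blank and AngII values did. PPP1CB, the catalytic subunit of myosin light chain phosphatase, was listed at 0 in the blank, at 0.820, 0.206 and 0.399 FPKM in the AngII, and at 27.8, 16.4 and 23.8 in the vericiguat + AngII libraries. The PPP1CB groups did not overlap either. These 3 subunits are close paralogs, as are PPP2CA and PPP2CB, and the counting could have divided reads between them, so each single level is uncertain.

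The ratio of PPP1CA to PPP1CC was 7.26, 1.82 and 4.04 in the blank, 1.00, 3.46 and 2.09 in the AngII, and 1.95, 2.45 and 3.00 in the vericiguat + AngII libraries. PPP1CA was the higher in every library, by a narrow margin in AngII library 1. PPP2CA, the main catalytic subunit of protein phosphatase 2A, was at 1.00, 0.051 and 0.590 FPKM in the blank, at 0.614, 0.855 and 0.830 in the AngII, and at 87.0, 63.6 and 48.2 in the vericiguat + AngII libraries. Its blank and AngII values overlapped, and its vericiguat + AngII values were among the more spread, with a mean of 66.3 ± 19.5 FPKM (SD, n = 3). PPP2CB was at 1.08, 0 and 0.551 FPKM in the blank, at 1.17, 0.195 and 0.189 in the AngII, and at 36.0, 31.1 and 30.7 in the vericiguat + AngII libraries. PPP2CA was 2.41, 2.05 and 1.57 times PPP2CB in the vericiguat + AngII libraries. PPP4C, the catalytic subunit of protein phosphatase 4, was at 3.49, 0.140 and 1.40 FPKM in the blank, at 0.468, 1.06 and 0.342 in the AngII, and at 49.3, 54.4 and 51.5 in the vericiguat + AngII libraries. PPP4C had the smallest coefficient of variation of the 41 genes in the vericiguat + AngII libraries, 4.90%, while its blank and AngII values overlapped.

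Calcineurin, the calcium-dependent phosphatase that acts on NFAT, was listed with 2 catalytic subunits. PPP3CA was at 0.051 FPKM in blank library 1 and 0 in the other 2 blank libraries, at 0.059, 0 and 0.071 in the AngII, and at 4.78, 2.40 and 3.51 in the vericiguat + AngII libraries. PPP3CB was at 0.461, 0 and 0.090 FPKM in the blank, at 0.418, 0.286 and 0.601 in the AngII, and at 14.3, 9.98 and 10.6 in the vericiguat + AngII libraries. PPP3CB was the higher of the pair in every library that listed either, and neither separated blank from AngII.

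The regulatory subunits that direct phosphatases to their substrates spanned a wide range. PPP2R5B, a B56-type subunit of protein phosphatase 2A, was at 2.73, 0.236 and 1.61 FPKM in the blank, at 0.550, 2.56 and 1.05 in the AngII, and at 31.4, 35.6 and 37.3 in the vericiguat + AngII libraries. PPP2R5C, another of this type, was at 0.158, 0.039 and 0.082 FPKM in the blank, at 0.234, 0.261 and 0.316 in the AngII, and at 7.72, 6.56 and 5.65 in the vericiguat + AngII libraries. The PPP2R5C groups did not overlap, whereas PPP2R5B overlapped between blank and AngII. PPP1R2, an inhibitor of protein phosphatase 1, was at 1.72, 0.117 and 0.697 FPKM in the blank, at 0.782, 0.261 and 0.190 in the AngII, and at 23.8, 18.4 and 18.6 in the vericiguat + AngII libraries. PPP2R2A, a B55-type subunit, averaged 12.7 ± 2.41 FPKM, and PPP2R5D averaged 12.2 ± 0.657 (SD, n = 3) in the vericiguat + AngII libraries, with at most 0.787 and 0.128 in any other library. PPP1R3A, the subunit that targets protein phosphatase 1 to glycogen in striated muscle, was the most uneven phosphatase gene above 1 FPKM, at 15.8, 5.38 and 7.17 in the vericiguat + AngII libraries and at most 0.163 elsewhere. PPP2R2B was at most 0.041 FPKM in any library. In the order of vericiguat + AngII levels, PPP1CA stood above PPP2CA without overlap, the ranges of PPP2CA and PPP4C and of PPP4C and PPP1CC overlapped, and those from PPP2R2A down through PPP2R5D, PPP3CB, PPP1R3A and PPP2R5C overlapped from neighbour to neighbour.

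**Figure D2:**
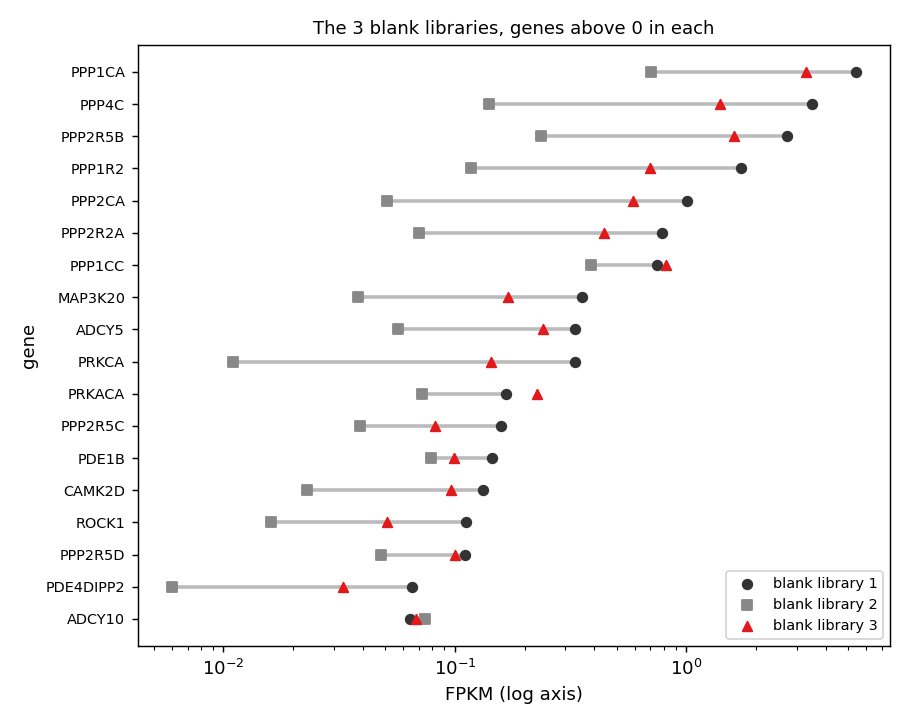
FPKM (log axis) of the 18 signalling genes that were above 0 in all 3 blank libraries, with 1 symbol per library and a grey line from library 1 to library 2. Blank library 3 lies between libraries 1 and 2 in 16 of the 18 genes, all but PPP1CC and PRKACA.

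To compare groups, limma was run on log2(FPKM + 1) over the 10908 genes with at least 1 FPKM in at least 3 of the 9 libraries, and calls needed a log2 difference of 1 or more in size together with a p below 0.05 after Benjamini-Hochberg adjustment. Changes of genes with low FPKM are understated by the pseudocount of 1. The fold threshold named below is this difference in log2(FPKM + 1), which is smaller in size than the log2 ratio of the FPKM themselves. Of the 41 genes, 31 were tested. The 10 that were not include CDK14, MAP3K21, PLA2G4E, PLA2G6, PLA2R1, PPP1R17, PPP2R2B, PPP2R2C and PRKCB. Of the 31, 27 met this minimum only with the vericiguat + AngII libraries, as did 9821 of all genes tested, so a difference of that group was built into their being tested. The other 4, PPP1CA, PPP1CC, PPP2R5B and PPP4C, met it without them. The 3 comparisons share their groups and are not independent of each other. With 3 libraries against 3, an exact two-sided permutation test of a single gene cannot give a p below 0.1.

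The first comparison asked how AngII alone moved these genes. No signalling gene was called by limma between the AngII and blank groups on the deposited FPKM, where 1.55% of all genes tested were called, 157 of them higher and 12 lower in AngII. At an unadjusted p below 0.05, 6 of the 31 signalling genes and 1567 of all 10908 passed. The log2 differences of AngII minus blank ran from -0.53 for PPP4C to 1.08 for PRKCZ-2, whose blank values are all 0 so that the estimate depends on the pseudocount, with a median of 0.08 against 0.06 over all genes tested. PRKCZ-2 came nearest to a call with an adjusted p of 0.0633, and PPP1CC followed at 0.84 ± 0.24 (SE) with an adjusted p of 0.122. Every AngII library lay above every blank library for 7 of the 31, namely ADCY10, PDE4DIPP2, PPP1CB, PPP1CC, PPP2R5C, PRKCZ-2 and ROCK1, and none lay below throughout. This is 22.6%, near the 21.3% of all genes tested whose groups did not overlap. Without blank library 3, again no signalling gene was called, nor was any of the 10908, with 3 and 993 at an unadjusted p below 0.05. Without blank library 2 no signalling gene was called and 309 of all genes were, 147 higher and 162 lower in AngII, and the signalling genes with a difference above 0 went from 21 to 14 of the 31.

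The second comparison asked what vericiguat ahead of AngII changed against AngII alone. All 31 signalling genes tested were called higher in the vericiguat + AngII group, where 99.6% of all genes tested were called, and all 31 groups were apart, as were 99.8% of all genes tested. Nothing particular to these enzymes can be read from a count this close to that of all genes. The differences were spread from 1.20 for PRKCE to 5.21 for PPP2CA on the log2(FPKM + 1) scale, with a median of 3.46 against 2.76 over all genes tested. With a pseudocount of 0.1 these medians were 4.80 and 4.78. The largest were PPP2CA at 5.21 ± 0.30 (SE, adjusted p = 6.21e-09), PPP4C at 5.05 ± 0.42 (adjusted p = 1.89e-07) and PPP1CA at 4.54 ± 0.49 (adjusted p = 2.34e-06). The smallest were PRKCE, PLA2G4A at 1.44 ± 0.13 (adjusted p = 4.78e-07) and PRKCZ at 1.45 ± 0.22 (adjusted p = 4.16e-05). Between these ends, ADCY5 was higher by 4.03 ± 0.19, CAMK2D by 4.29 ± 0.13, PPP1CB by 3.995 ± 0.21, PRKACA by 3.16 ± 0.20, ROCK1 by 3.05 ± 0.13, MAP2K1 by 2.12 ± 0.13, PPP3CA by 2.096 ± 0.15 and PRKCA by 1.64 ± 0.10. The order of these differences depends on the pseudocount of 1 and so on the level of each gene. As ratios of group means over AngII, PPP2CA, PPP4C and PPP1CA stood at 86.5, 83.1 and 28.2. PLA2G4A and PRKCZ stood at 42.0 and 21.5, and CAMK2D at 153. PRKCE has no such ratio, since its AngII values were all 0.

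Against the blank group the picture was the same. All 31 signalling genes tested were called higher in the vericiguat + AngII group, with a background of 99.4%, and all 31 groups were apart, with a background of 99.7%. The differences ran from 1.05 for PRKCE to 5.45 ± 0.30 (SE, adjusted p = 3.93e-09) for PPP2CA, with a median of 3.56 against 2.83 over all genes tested. PPP1CA was higher by 4.94 ± 0.49 (adjusted p = 1.05e-06) and PDE4DIPP2 by 4.88 ± 0.20 (adjusted p = 5.17e-10). At the low end stood PLA2G4A at 1.40 ± 0.13 and PRKCA at 1.48 ± 0.10. This order, too, depends on the pseudocount of 1. As ratios of group means over blank, PPP2CA, PPP1CA and PDE4DIPP2 stood at 121, 35.0 and 862. PRKCE, PLA2G4A and PRKCA stood at 11.8, 25.1 and 13.8. The 31 calls were also made without blank library 3. PRKCE fell just short of the fold threshold when blank library 2 or vericiguat + AngII library 3 was left out, at 0.98 in both cases.

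Since nearly every gene tested was higher in the vericiguat + AngII libraries, the genes were compared once more relative to the typical gene. Each library was divided by a median-ratio factor from the 3826 genes above 0 in all 9 libraries, which was 0.463, 0.0792 and 0.263 for the blank, 0.297, 0.448 and 0.334 for the AngII, and 15.8, 14.2 and 13.9 for the vericiguat + AngII libraries. On this relative scale a difference says how a gene moved beside the other genes and not whether its level rose. A gene whose scaled FPKM stayed below 1 in all 9 libraries could not reach a log2 difference of 1. With these factors and a pseudocount of 1 it could therefore not be called. Of the signalling genes tested this held for MAP2K1, PDE1B, PLA2G4A, PLA2G4B, PPP2R5C, PPP2R5D, PPP3CA, PRKCA, PRKCE and PRKDC. Values in blank library 2 are enlarged most by the scaling, since its factor is the smallest.

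**Figure D3:**
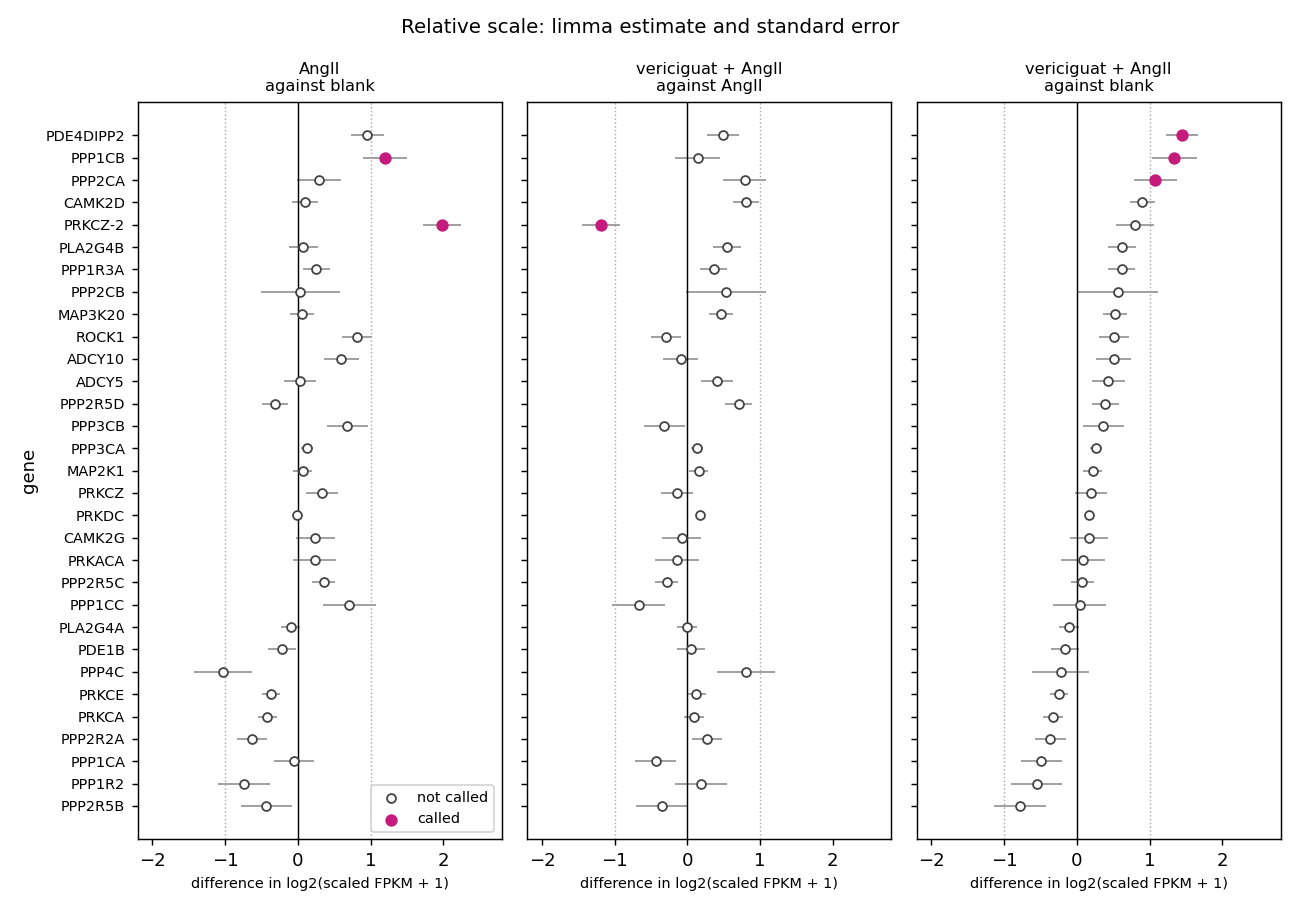
Relative-scale differences in log2(scaled FPKM + 1) for the 31 signalling genes tested, with limma estimates as points, standard errors as bars, dotted lines at the fold threshold of 1 and filled points for calls. Most points lie between the dotted lines, and PRKCZ-2 is called higher in AngII than in blank and lower in vericiguat + AngII than in AngII. The estimates of PRKCZ-2 and PPP1CB against the blank group, where both were listed at 0, depend on the pseudocount and are not folds.

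Relative to the typical gene, PRKCZ-2 and PPP1CB were called between AngII and blank, a count near the share of all genes tested. These 2 of the 31 signalling genes were called, both higher in AngII, where 8.39% of all genes tested were called, 563 higher and 352 lower. Nothing particular to these enzymes can be read from this count. At an unadjusted p below 0.05, 10 of the 31 and 3611 of all 10908 passed. The differences ran from -1.03 to 1.98, with a median of 0.08 for the signalling genes and for all genes tested. PRKCZ-2 was listed at 0 in the blank libraries and had scaled FPKM of 2.53, 5.04 and 1.91 in the AngII libraries (adjusted p = 0.00183). It was called under all 16 other settings it was tested in, including without blank library 3 (adjusted p = 0.0112). PPP1CB was at 0 in the blank and at 2.76, 0.460 and 1.19 in the AngII libraries (adjusted p = 0.0304), and its call was made under 7 of 17 other settings only. Without blank library 3 the PPP1CB call was lost (adjusted p = 0.0914), as it was when any 1 of blank library 1, AngII libraries 1 and 3 and the 3 vericiguat + AngII libraries was left out.

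Other genes passed the adjusted p or the fold threshold but not both, or neither. ROCK1 had scaled FPKM of 0.242, 0.202 and 0.194 in the blank and 1.74, 0.663 and 1.10 in the AngII libraries, a difference of 0.81 ± 0.21 (SE, adjusted p = 0.0293). Its groups were apart, and without blank library 3 the adjusted p was 0.0941. PDE4DIPP2 had scaled FPKM of 0.140, 0.0758 and 0.126 in the blank and 0.866, 1.97 and 0.814 in the AngII libraries, a difference of 0.95 ± 0.22 (adjusted p = 0.0212). On the low side stood PPP4C at -1.03 ± 0.40, whose adjusted p was 0.107. PPP4C had scaled FPKM of 7.54, 1.77 and 5.33 in the blank and 1.58, 2.36 and 1.02 in the AngII libraries, and the groups overlapped through blank library 2. Without that library PPP4C was called lower in AngII, at -1.50 ± 0.27 (adjusted p = 0.00807), and without blank library 3 it was at -0.90 ± 0.46 (adjusted p = 0.256). The fixed signalling genes PRKACA, CAMK2D, MAP2K1, PPP2CA, PPP3CA, PLA2G4A and ADCY5 differed by at most 0.29 in size, each less than 2 of its standard errors. Of these, MAP2K1, PPP3CA and PLA2G4A could not have been called, as their scaled FPKM stayed below 1. PRKCA lay at -0.42 ± 0.14 (adjusted p = 0.066) and PRKCE at -0.37 ± 0.13 (adjusted p = 0.0831), with the AngII values of PRKCE at 0.

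**Figure D4:**
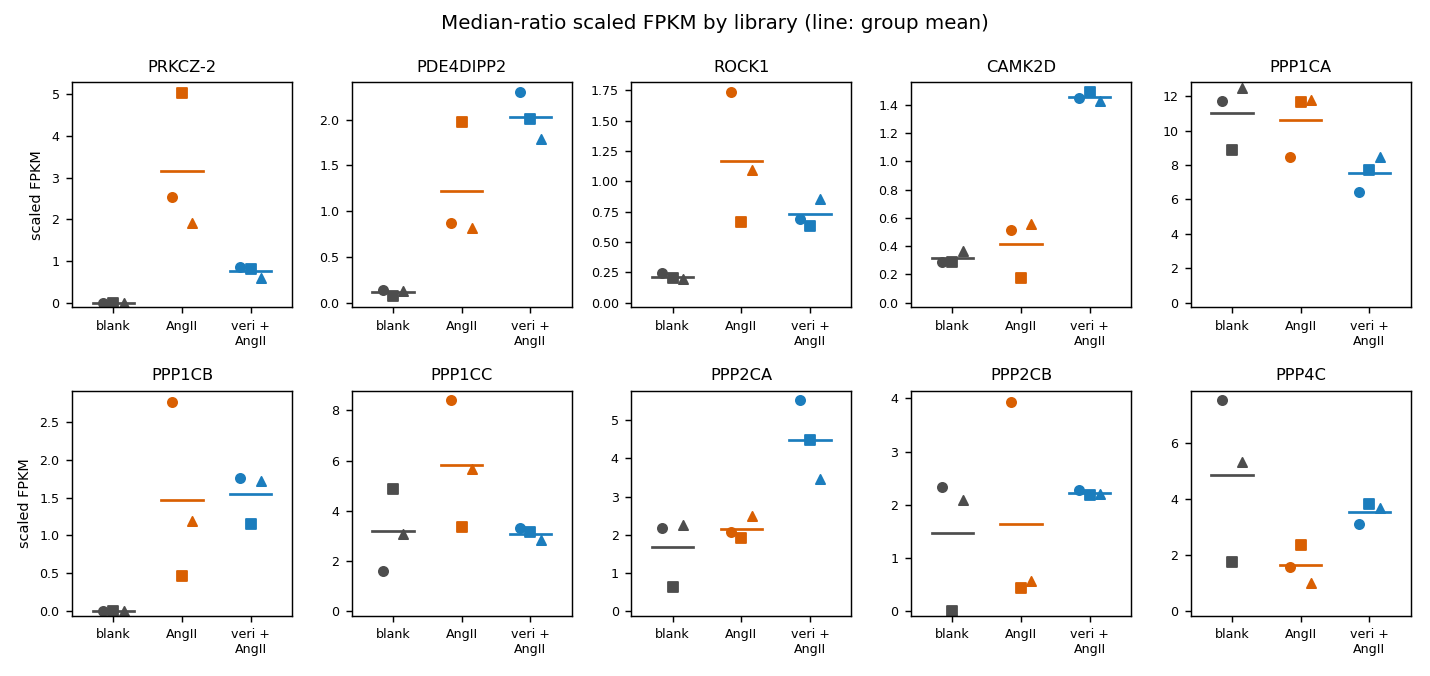
Scaled FPKM (divided by the median-ratio factor) of 10 signalling genes in each library, with circles, squares and triangles for libraries 1, 2 and 3 of each group and lines at the group means. PRKCZ-2 is at 0 in the blank, at 1.91 to 5.04 in the AngII and at 0.587 to 0.851 in the vericiguat + AngII (veri + AngII) libraries, and CAMK2D is at 0.172 to 0.557 in the AngII and 1.43 to 1.49 in the vericiguat + AngII libraries.

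With vericiguat ahead of AngII, PRKCZ-2 was the 1 signalling gene called relative to the typical gene, and it was lower than with AngII alone. Over all genes tested 4.16% were called, so 1 of the 31 is near the share of all genes. The count depends on the scaling, since with libraries scaled to their sum outside the KEF51 entries 19 of the 31 were called, all higher, as were 4752 of all 10908 genes, with 25 lower. PRKCZ-2 had scaled FPKM of 0.851, 0.811 and 0.587 in the vericiguat + AngII libraries against 2.53, 5.04 and 1.91 in the AngII libraries, a difference of -1.18 ± 0.26 (SE, adjusted p = 0.0132). The groups were apart, and on the deposited FPKM PRKCZ-2 was higher and not lower in the vericiguat + AngII libraries, by 2.49 ± 0.26 (adjusted p = 1.33e-06). The relative call was made under 11 of 16 other settings. It was lost without AngII library 2 (-0.88, short of the fold threshold), without vericiguat + AngII library 2 or 3 (adjusted p = 0.0516 and 0.0733) and under quantile normalization, and with the scaling that leaves out the KEF51 entries the sign turned, to 0.20. Without blank library 3 it was called (adjusted p = 0.0264).

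In the same comparison 3 signalling genes passed the adjusted p below the fold threshold, and 19 of the 31 had differences above 0, as had 6711 of all 10908 genes tested. CAMK2D had scaled FPKM of 0.516, 0.172 and 0.557 in the AngII and 1.45, 1.49 and 1.43 in the vericiguat + AngII libraries, a difference of 0.81 ± 0.17 (SE, adjusted p = 0.0119) with groups that were apart. PPP2R5D differed by 0.70 ± 0.18 (adjusted p = 0.0298) and PRKDC by 0.18 ± 0.03 (adjusted p = 0.00371). PPP2R5D had scaled FPKM of 0.43, 0 and 0 in the AngII and 0.80, 0.88 and 0.82 in the vericiguat + AngII libraries. PRKDC had 0, 0 and 0.0359 in the AngII and 0.132, 0.168 and 0.135 in the vericiguat + AngII libraries. Both stayed below 1 in every library and so could not reach the threshold. PPP4C, at 0.81 ± 0.40 with an adjusted p of 0.208, and PPP2CA, at 0.79 ± 0.30 with an adjusted p of 0.113, did not pass. On the other side PPP1CC lay at -0.67 ± 0.36 (adjusted p = 0.258) and PPP1CA at -0.44 ± 0.28 (adjusted p = 0.338). PRKACA at -0.14 ± 0.30, ROCK1 at -0.30 ± 0.21, PRKCA at 0.09 ± 0.14, MAP2K1 at 0.16 ± 0.13 and PLA2G4A at -0.01 ± 0.14 differed by less than 2 standard errors. The median over the 31 was 0.13 against 0.09 over all genes tested. With a pseudocount of 0.1, CAMK2D and PRKDC were called higher and PPP2R5D was not called, while 1182 of all 10908 genes were called.

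Against blank, 3 signalling genes were called relative to the typical gene, all higher in the vericiguat + AngII group, with 9.56% of all genes tested called. PDE4DIPP2 had scaled FPKM of 2.30, 2.01 and 1.79 in the vericiguat + AngII libraries against 0.140, 0.0758 and 0.126 in the blank, a difference of 1.44 ± 0.22 (SE, adjusted p = 0.00142), and was called under all 18 other settings. PPP1CB had scaled FPKM of 1.76, 1.16 and 1.71 against 0 in every blank library (adjusted p = 0.00971), and was called under all 17 other settings it was tested in. PPP2CA had scaled FPKM of 5.52, 4.48 and 3.47 against 2.17, 0.644 and 2.25, a difference of 1.08 ± 0.30 (adjusted p = 0.0228). The groups of all 3 genes were apart. The PPP2CA call was lost without blank library 2 (0.76, short of the fold threshold), without vericiguat + AngII library 1 or 2 (adjusted p = 0.0957 and 0.0754) and under quantile normalization. All 3 calls were also made without blank library 3, with adjusted p of 0.00893, 0.0338 and 0.0318.

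Below the fold threshold, CAMK2D differed from blank by 0.90 ± 0.17 (SE, adjusted p = 0.00415), with scaled FPKM of 0.285, 0.290 and 0.365 in the blank libraries. PLA2G4B differed by 0.62 ± 0.19 (adjusted p = 0.0346), PPP1R3A by 0.61 ± 0.18 (adjusted p = 0.0312) and MAP3K20 by 0.52 ± 0.17 (adjusted p = 0.0389). PRKCZ-2 at 0.80 ± 0.26 (adjusted p = 0.0414), PPP3CA at 0.26 ± 0.09 (adjusted p = 0.0421) and PRKDC at 0.17 ± 0.03 (adjusted p = 0.00265) also passed the adjusted p. The most negative was PPP2R5B at -0.78 ± 0.35 (adjusted p = 0.125). The median over the 31 was 0.22 against 0.18 over all genes tested. PPP1CA, the most abundant of the 41 genes, had scaled FPKM of 11.7, 8.89 and 12.5 in the blank, 8.44, 11.7 and 11.8 in the AngII, and 6.45, 7.72 and 8.49 in the vericiguat + AngII libraries, where it differed from blank by -0.49 ± 0.28 (adjusted p = 0.212).

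Other genes of AngII and cGMP signalling, taken from a list of 72, are given for comparison. Of these, 18 were listed by symbol and 13 were tested. On the deposited FPKM none of the 13 was called by limma between AngII and blank, and all 13 were called higher with vericiguat in both comparisons, where 99.6% and 99.4% of all genes tested were called. PRKG1, the protein kinase G that cGMP activates, was at 0.047, 0 and 0.011 FPKM in the blank, at 0.013, 0 and 0.016 in the AngII, and at 2.06, 1.52 and 1.74 in the vericiguat + AngII libraries. The 2 subunits of soluble guanylate cyclase, the target of vericiguat, averaged 11.9 ± 1.62 FPKM for GUCY1A1 and 12.8 ± 2.05 for GUCY1B1 (SD, n = 3) in the vericiguat + AngII libraries, with at most 0.232 and 0.199 in any other library. AGTR1, the receptor through which AngII mainly acts, was not tested and was at 1.29, 0.628 and 1.32 FPKM in the vericiguat + AngII libraries and at most 0.11 elsewhere, and AGTR2 was listed at 0 in all 9 libraries. Relative to the typical gene, PTGS1, a cyclooxygenase that uses the arachidonic acid released by phospholipase A2, was called lower in AngII than in blank by 1.13 on the log2 scale (-1.13 ± 0.32, SE, adjusted p = 0.0405). The PTGS1 call was lost when any 1 of the 9 libraries was left out, with an adjusted p of 0.0502 without blank library 3. Also on that scale CAV1, which forms caveolae, and JUN, a transcription factor at the end of the MAP kinase cascade, were called higher in vericiguat + AngII than in blank, by 1.32 ± 0.32 (adjusted p = 0.0122) and 1.86 ± 0.34 (adjusted p = 0.00335), and were called without blank library 3 as well (adjusted p = 0.0422 and 0.00801). None of the 13 was called relative to the typical gene between vericiguat + AngII and AngII.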

How the data were processed

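RNA of 9 CF samples (3 libraries in each of the blank, AngII and vericiguat + AngII groups) was sequenced, and samples were grouped by their labels. The authors discarded poor reads (low quality, adapter sequence, many unknown bases), compared the rest with a reference genome, added new coding transcripts, and deposited 1 table of FPKM values. The submitters' processing notes list FastQC 0.11.9, Trimmomatic 0.39, HISAT2 2.2.1 and featureCounts 2.0.1. The table holds no counts, so the depth of each library is not known and no counting interval is given. Nothing in the labels says that the libraries of a group are separate cultures, so p-values measure only the spread between these samples, and no batch is named.

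All columns of the table were assigned to a sample by name. Differences were tested with limma 3.58.1 in R 4.3.3 (lmFit and eBayes with a trend, all 9 libraries in 1 fit, no covariate) on log2(FPKM + 1), for the deposited FPKM and for FPKM divided by median-ratio factors, with Benjamini-Hochberg adjustment over all 10908 genes tested. The test was checked on simulated data. The signalling genes, the list of other pathway genes and the marker lists were chosen with earlier results of these data known. Statistics were given for the 3 highest and 3 lowest called genes whose groups did not overlap and, in some comparisons only, for genes of a fixed list. Most others were given by counts and ranges. Other genes given with an estimate and an adjusted p were chosen after their values were seen. Of the 41 genes, 1 is not reported here by name. The GRCr8 rat gene table was used for names only. Alternatives were a pseudocount of 0.1, no filter, a mean of at least 5 FPKM, genes above 0 in all 9 libraries, only the compared groups, eBayes without trend, a block for the replicate number, each library left out, rescaling to TPM, quantile normalization and scaling to the sum outside the KEF51 entries.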

Additional observations from a re-analysis of the deposited data

How the results depend on the processing

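Of the 105 recomputed counts of called signalling genes, 79 were within 1.5 times the count in the report and 26 moved. Of the single-gene values, 1180 kept their side of the threshold, 20 lost a call, 15 gained one and 1 reversed. On the deposited FPKM, AngII against blank gave 5 calls with a pseudocount of 0.1. Both comparisons with vericiguat gave 13 calls of 13 genes tested at a mean of at least 5 FPKM, and 17 of 17 among genes above 0 in all 9 libraries, where fewer genes were tested. Over all genes these were 3113 and 3110 of 3124, and 3768 and 3761 of 3826. Relative to the typical gene, AngII against blank gave 4 calls with a pseudocount of 0.1, 1 each without a filter, at a mean of at least 5 FPKM, with only the compared groups and with the sum outside the KEF51 entries, 0 among genes above 0 in all 9 libraries, and 1 to 3 with 1 library left out. Vericiguat + AngII against AngII gave 3 calls with a pseudocount of 0.1, 0 at a mean of at least 5 FPKM, among genes above 0 in all 9 libraries and with quantile normalization, 19 with the sum outside the KEF51 entries and 0 to 1 with 1 library left out. Against blank it gave 8 calls with a pseudocount of 0.1, 19 with that sum, 2 among genes above 0 in all 9 libraries and 2 to 3 with 1 library left out. PRKCZ-2 between vericiguat + AngII and AngII reversed to 0.20 with that sum. Except where fewer genes were tested, the cause was not tested. Scaling to that sum raised the median over all genes tested from 0.09 to 0.92 between vericiguat + AngII and AngII, with 4752 genes called higher and 25 lower, and from 0.18 to 0.95 against blank, with 5008 and 53.

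With the replicate block the counts of called signalling genes were 0, 31 and 31 on the deposited FPKM and 2, 1 and 3 on the relative scale, as without it. Over all genes, AngII against blank on the deposited FPKM gave 7 calls with the block and 169 without. Same-numbered libraries deviated from their group means with correlations of -0.0616 to 0.0646. These were taken on unscaled log2(FPKM + 1), where differences of whole libraries enter, so they cannot decide whether the numbers pair libraries. Over all genes that comparison also gave 969 calls with a pseudocount of 0.1, 79 without a filter, 342 at a mean of at least 5 FPKM, 20 with TPM, 0 with only the compared groups (1663 at an unadjusted p below 0.05) and 0 to 309 with 1 library left out. The relative scale gave 915, 454 and 1043 calls in the 3 comparisons, and 1727, 1182 and 3339 with a pseudocount of 0.1, 550, 301 and 602 among genes above 0 in all 9 libraries, and 135, 4777 and 5061 with the sum outside the KEF51 entries. AngII against blank also gave 277 there with only the compared groups.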
